A study of Mus musculus with 8 samples.

Results

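The genes of neutrophil secondary granules and Olfm4 were followed in immune cells of the mouse brain. The 8 members were Ltf, Camp, Ngp, Lcn2, Cd177, Chil3, Olfm4 and Wfdc21, taken by symbol from the 32285 genes of the count matrices. They were read in neutrophils, defined as cells in which S100a8 and S100a9 together made up at least 2% of the unique molecular identifiers (UMIs, the counted transcript molecules), and in the other cell types. This gate held 6215 of 50099 cells and used none of the members.

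Cells positive for CD45.2, a surface protein of leukocytes, were sorted from perfused brains of WT C57BL/6J mice and of App NL-G-F mice. The labels give an age of 16 weeks for every group, whereas the methods describe mice of 3 months at treatment. App NL-G-F is a knock-in that carries humanised amyloid-β sequence with the Swedish, Arctic and Iberian mutations in every cell that uses the App gene. In both genotypes there was a control group on water, an acute colitis group on 2% dextran sulfate sodium (DSS), which injures the colon lining when drunk, a chronic colitis group given 3 cycles of 2% DSS for 5 days alternating with water, and a food allergy group sensitised to ovalbumin and then given it orally. Each of these 8 groups was 1 library of a droplet 5′ kit that pooled cell samples marked with hashtag antibodies. The labels do not say whether a hashtag stood for a separate animal, so a hashtag group is a set of cells within a library and not a replicate of a condition. Mice had received an anti-CD45 antibody intravenously to mark blood leukocytes, a mark that is not part of the count matrices, so neutrophils in vessels and in tissue cannot be told apart.

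Neutrophils build their granules in sequence as they mature in the bone marrow. Azurophil proteins such as myeloperoxidase and elastase are made first, in promyelocytes, and the proteins of secondary (specific) granules follow in myelocytes and metamyelocytes. Band and segmented cells then stop making most granule proteins and turn to cytokine and chemokine genes such as Il1b and Cxcl2. Transcripts of secondary granule genes in a neutrophil therefore mark an earlier stage of maturation than Il1b. Ltf encodes lactoferrin, an iron-binding protein of the granule matrix. Camp encodes the cathelicidin antimicrobial peptide precursor, and Ngp a cystatin-related granule protein. Lcn2 encodes lipocalin 2, which binds bacterial siderophores, and Cd177 a surface glycoprotein of neutrophils. Chil3 encodes the chitinase-like protein Ym1, which monocytes and macrophages also make, and Wfdc21 a secreted protein of the whey acidic protein family. Olfm4 encodes olfactomedin 4, a granule glycoprotein known for being present in only a fraction of neutrophils.

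Ltf, Camp and Ngp lie on chromosome 9 of GRCm38, where GENCODE vM21 places Ltf at 111019271 to 111042767 (plus strand), Camp at 109847379 to 109849617 (minus strand) and Ngp at 110419747 to 110423012 (plus strand). Lcn2 is at 32384633 to 32388252 of chromosome 2, Cd177 at 24743983 to 24760311 of chromosome 7 and Chil3 at 106147554 to 106167564 of chromosome 3, all on the minus strand. Olfm4 is at 79984081 to 80023139 of chromosome 14 and Wfdc21 at 83746940 to 83752642 of chromosome 11, both on the plus strand. All are annotated as protein coding. The counts cover whole genes and do not separate exons, introns or untranslated regions.

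Secondary granule genes are textbook targets of C/EBP factors, so the 250 bases before the RefSeq start of each member (GRCm38.p6, 7 of 8 members matched) were searched for the letters TTGCNNAA on both strands (TTNNGCAA on the other strand). Ltf, Ngp and Lcn2 held such letters, and the windows of Camp, Cd177, Chil3 and Olfm4 did not. The first base of the match was 75 bases before the start in Ltf, 138 and 11 bases before it in Ngp, and 216 bases before it in Lcn2. Of 32851 RefSeq windows of the same length, 3142 (9.56%) held the letters. The windows of Ltf, the member used below to divide the neutrophils, of Ngp, and of Olfm4, which had no match, are shown 5′ to 3′ as far as they lie outside GENCODE exons of the gene, with the match in capitals. They cover chr9:111019042-111019270, chr9:110419558-110419746 and chr14:80000052-80000250, all on the plus strand, and leave out the second match of Ngp. The searched windows of Olfm4 and Lcn2 lay wholly inside the GENCODE spans given above, since their RefSeq starts were downstream of the GENCODE starts. A match is a run of letters and not a measured binding site.
Ltf: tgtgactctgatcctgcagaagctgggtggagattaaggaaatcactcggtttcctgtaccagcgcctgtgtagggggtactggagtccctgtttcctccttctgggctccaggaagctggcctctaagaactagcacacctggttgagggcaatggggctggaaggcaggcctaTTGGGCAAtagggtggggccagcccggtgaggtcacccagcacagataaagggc
Ngp: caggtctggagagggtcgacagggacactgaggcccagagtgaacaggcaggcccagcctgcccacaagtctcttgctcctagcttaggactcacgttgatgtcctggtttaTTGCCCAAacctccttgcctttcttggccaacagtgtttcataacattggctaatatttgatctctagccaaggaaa
Olfm4: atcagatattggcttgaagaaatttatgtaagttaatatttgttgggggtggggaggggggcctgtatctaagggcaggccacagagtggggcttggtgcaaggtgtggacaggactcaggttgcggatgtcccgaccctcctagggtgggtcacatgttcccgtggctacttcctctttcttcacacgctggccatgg

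Libraries held between 26988646 and 56307389 UMIs and between 4875 and 7199 cells after filtering, and pairs of libraries shared 34 to 72 cell barcodes. Gated cells carried neutrophil markers, with Ly6g between 554 and 997 CPM (UMIs of the gene scaled to a fixed total of UMIs) in gated cells and between 0.172 and 1.40 CPM in all other cells. Of the gated cells, 5565 lay in clusters named neutrophil-like from their markers, 194 in a precursor-like cluster, 97 in a plasma cell-like cluster and 87 in a macrophage-like cluster. The library of WT food allergy stood apart, with 77.6% of its gated cells in neutrophil-like clusters and 22.5% without a hashtag. Its summed level of 11 markers of other cell types was 5476 CPM, the highest of the 8 libraries (lowest 2345 CPM in App NL-G-F acute colitis). Neutrophils numbered 272 in WT control, 207 with acute colitis, 794 with chronic colitis and 1530 with food allergy, and 451, 1478, 602 and 881 in the same order in App NL-G-F. Their median depth ran from 2658 UMIs per cell in WT acute colitis up to 12743.5 in acute colitis of App NL-G-F mice. The 57 cells just inside the gate, at 2 to 2.5% S100a8 and S100a9, had 9582 CPM of the 8 members together, and the 54 cells just outside it, at 1.5 to 2%, had 10079 CPM.

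The 8 members were a large part of the neutrophil transcriptome in every library. Their summed level had a median of 92637 CPM over the 8 libraries and ran from 85061 CPM (App NL-G-F chronic colitis) to 109680 CPM (App NL-G-F acute colitis), a range of 1.29-fold. At least 1 UMI of a member was found in 87.4% of the neutrophils of WT acute colitis and in 98.5 to 100% in the other 7 libraries. These levels are shares of UMIs that are not divided by transcript length, so no order between genes is read from them.

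The transcripts of the matrix proteins differed in how far they varied between libraries. Ngp was at 41580 CPM in WT control, 32780 with acute colitis, 32274 with chronic colitis and 37654 with food allergy, and in the same order in App NL-G-F at 35124, 43158, 31119 and 35002 CPM. Ltf was at 10559, 6429, 6335 and 9151 CPM in WT and at 9114, 11319, 7614 and 8475 CPM in App NL-G-F. Ngp and Ltf were both highest in App NL-G-F acute colitis and next highest in WT control. Camp took another order, with 13940, 31306, 29621 and 25153 CPM in WT and 18622, 16618, 23801 and 23205 CPM in App NL-G-F. It was lowest in WT control and highest in WT acute colitis, 2.25-fold apart.

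Lcn2, Cd177 and Chil3 followed the order of Ltf more closely than that of Camp. Lcn2 was at 27946, 11294, 14518 and 19422 CPM in WT and at 20862, 26649, 15438 and 17351 CPM in App NL-G-F. Cd177 was at 2115, 836, 960 and 1212 CPM in WT and at 1606, 2045, 1188 and 1277 CPM in App NL-G-F. Both were highest in WT control and App NL-G-F acute colitis and lowest in WT acute colitis. Chil3 lay in separate ranges, with 4820 CPM in WT control, 3897 and 4692 CPM in control and acute colitis of App NL-G-F, and between 2051 and 2210 CPM in the other 5 libraries. Wfdc21 was lowest in WT control, at 1558 CPM, against 3074, 3773 and 2760 CPM in the treated WT groups, in the order above. Its levels in App NL-G-F were 4461, 4443, 3514 and 3723 CPM, of which 2 were above every WT library.

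Olfm4 had the widest range of the members. It was at 211, 280, 199 and 94.4 CPM in WT and at 328, 757, 236 and 93.7 CPM in App NL-G-F, in the same order of groups. The food allergy libraries were lowest in both genotypes and App NL-G-F acute colitis was highest, 8.08-fold above the lowest. The ranges of the other 7 members were between 1.39-fold and 2.86-fold. With 1 library per group, none of these differences has a replicate.

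**Figure D1:**
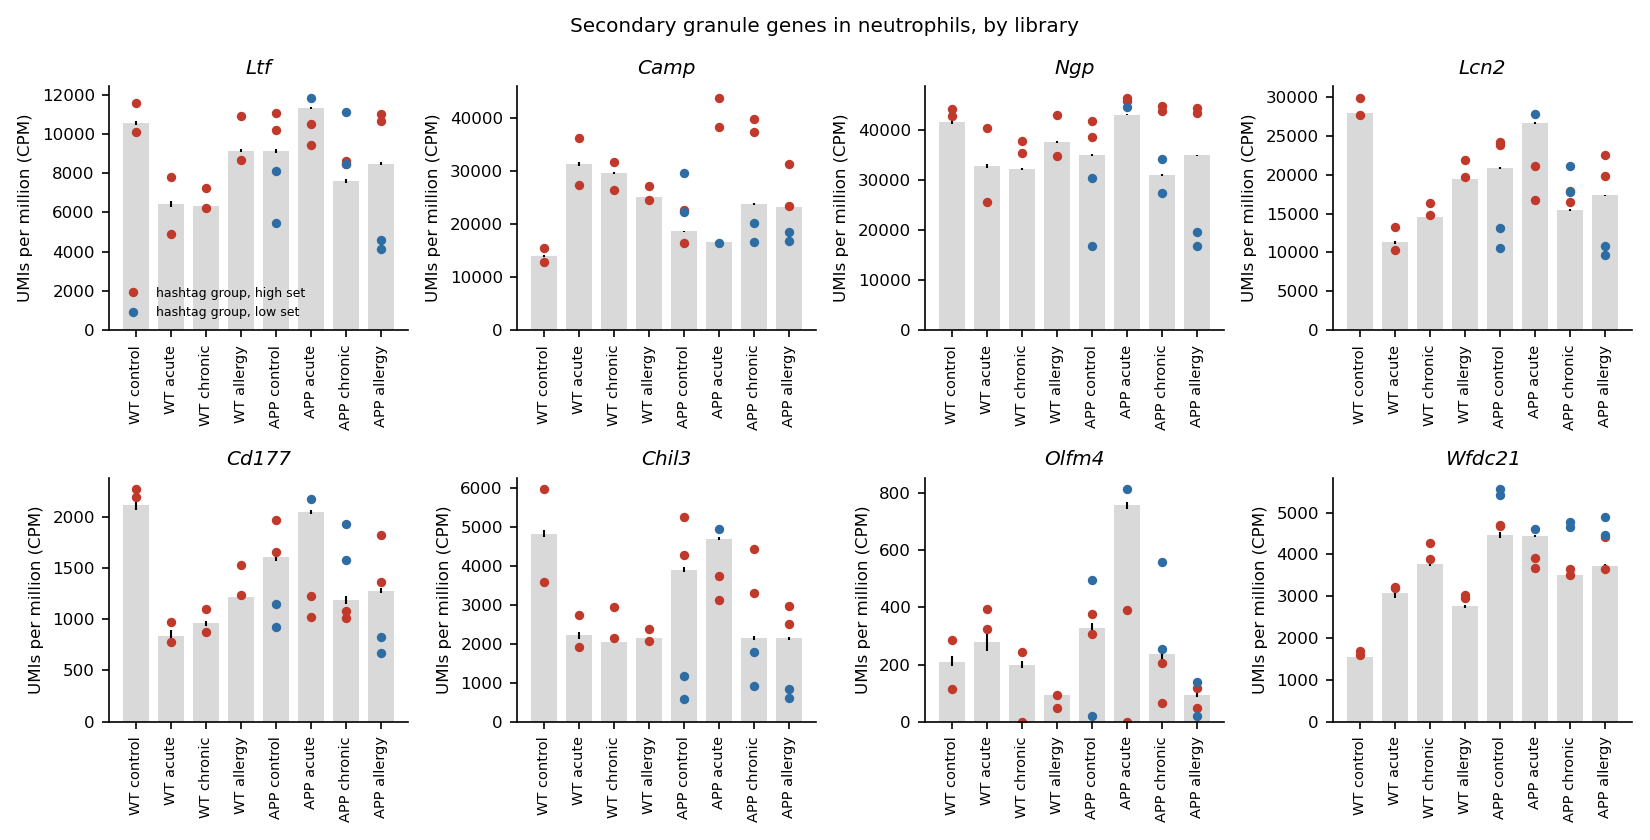
Level of each member in the neutrophils of the 8 libraries in CPM, with 1 panel per gene on its own axis from 0. Bars are whole libraries with exact Poisson 95% intervals, and points are hashtag groups of at least 20 neutrophils, coloured by the high and low immediate-early sets described further on. Camp and Wfdc21 were lowest in WT control, whereas Ltf, Lcn2, Cd177 and Chil3 were among their highest values there, and Olfm4 reached 757 CPM in App NL-G-F acute colitis.

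The hashtag groups within a library gave the spread inside it. Over the 23 hashtag groups of at least 20 neutrophils, Ltf ran from 4159 to 11850 CPM, and both ends were App NL-G-F groups (hashtag 6 in food allergy and hashtag 7 in acute colitis). The summed level of the members ran from 53813 CPM (hashtag 6 of App NL-G-F food allergy) to 130388 CPM (hashtag 5 of App NL-G-F acute colitis). Groups of the same library also differed, as the 4 groups of App NL-G-F food allergy had 109226, 114278, 53813 and 59744 CPM. Over these 23 groups, log2(CPM + 10) of Ltf and Lcn2 had a Pearson correlation of 0.92, as did Lcn2 and Cd177. Chil3 and Ngp had 0.90, while Camp and Ltf had 0.01 and Camp and Cd177 had -0.47. Olfm4 had 0.45 with Cd177 and less with every other member. Groups of 1 library share their droplets and free RNA and differ in depth, so the correlations are a description without a test.

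Over the same groups and 3812 genes with a mean of at least 20 CPM, the genes most like Ltf were Lcn2 (0.92), Map1lc3a (0.89), Hsd11b1 (0.89), Ltb4r1 (0.87) and Cd177 (0.86). Map1lc3a encodes an LC3 protein of autophagosomes and Ltb4r1 the leukotriene B4 receptor of neutrophils. The genes most like Olfm4 were Fkbp8 (0.80), Tbc1d10b (0.76), Srp19 (0.76), Otub1 (0.74) and Tmc8 (0.72). No member was among the 5 most like Olfm4, while 2 members were among the 5 most like Ltf.

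Outside the neutrophils the members divided into those found nearly only in neutrophils and those shared with other myeloid cells. Of all UMIs in cells, neutrophils held 99.8% for Camp, 99.8% for Ngp, 99.6% for Ltf and 99.4% for Olfm4. They held 98.6% for Lcn2, 98.0% for Cd177, 97.1% for Wfdc21 and 71.3% for Chil3. The remainder of Chil3 was in monocyte-like cells, of which 64.6% had a UMI, and in precursor-like cells, of which 52.6% did. Monocyte-like Chil3 ran from 410 CPM in App NL-G-F acute colitis to 8165 CPM in WT control, with a median of 948 CPM over libraries, and was 5244 CPM in App NL-G-F control. Chil4, a near-identical neighbour of Chil3 with which reads can be shared, had 36 UMIs in neutrophils against 180322 for Chil3.

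Lcn2 was at a median of 141 CPM in basophil-like cells (97.4 to 249 CPM in 5 libraries), 132 CPM in precursor-like cells and 91.3 CPM in monocyte-like cells. Cd177 was at 65.1 CPM in monocyte-like cells (58.6 to 161 CPM over 8 libraries), where 28.1% of cells had a UMI, and at 15.1 CPM in precursor-like cells. Wfdc21 was at 59.5 CPM in precursor-like cells, 49.8 CPM in monocyte-like cells and 32.0 CPM in mature B cell-like cells, against 1.70 CPM in CD4 T cell-like cells. Droplets also hold free RNA, so each level was set against S100a8 and S100a9 in the same cells, which free neutrophil RNA would carry in 1 ratio. Ngp was 14.7% of S100a8 and S100a9 in neutrophils, 13.5% in mature B cell-like cells and 14.9% in empty droplets. By contrast, Lcn2 was 7.67% in neutrophils and 285% in basophil-like cells, Cd177 was 0.547% and 17.4% in monocyte-like cells, Chil3 was 1.04% and 361% in monocyte-like cells, and Wfdc21 was 1.51% and 18.5% in mature B cell-like cells. The levels of Lcn2, Cd177, Chil3 and Wfdc21 in those types were therefore above what free neutrophil RNA carried, and the traces of Ngp in B cells were not.

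Olfm4 was at or near 0 in every other type. It had a UMI in 3 of 7093 mature B cell-like cells (0.0423%, median depth 2375 UMIs), against 553 of 6215 neutrophils (8.90%, exact binomial 95% interval 8.20 to 9.63%, median depth 7056 UMIs).

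**Figure D2:**
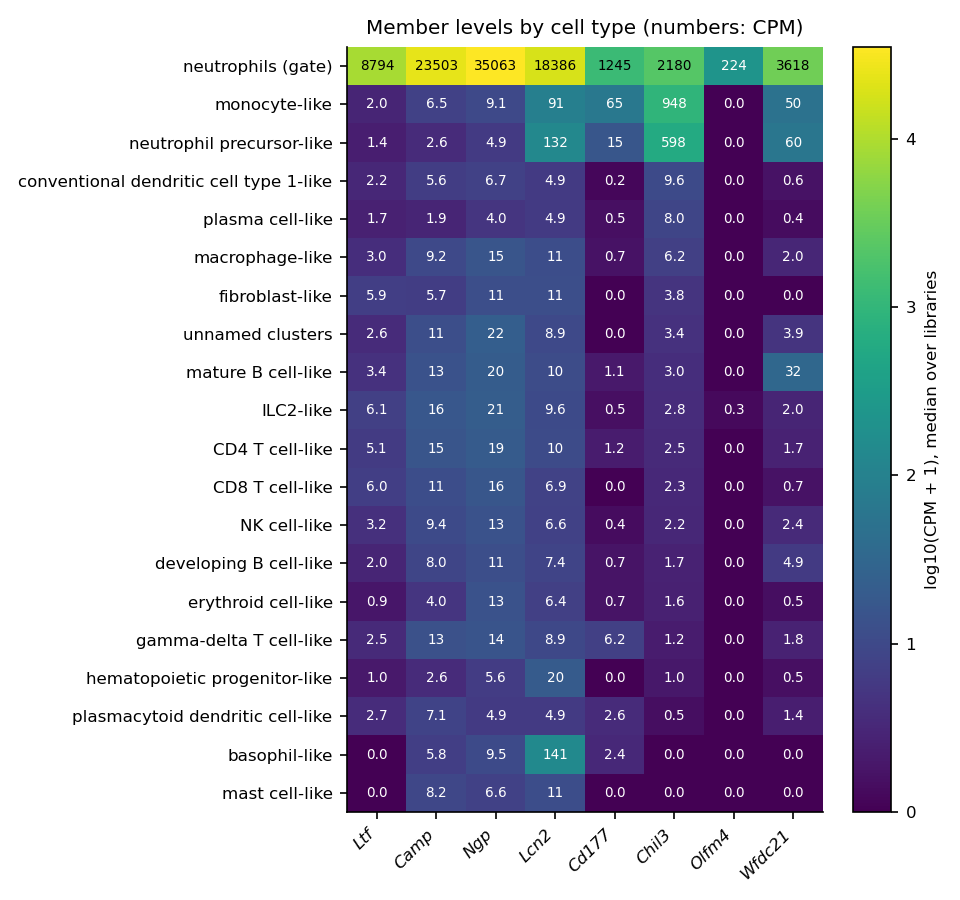
Level of each member by cell type, as the median over libraries, with colour for log10(CPM + 1) and the CPM printed in each field. Neutrophils hold the highest value for all members, Chil3 also reaches 948 CPM in monocyte-like cells, and Ngp stays at 21.6 CPM or less in named types outside the neutrophil-like clusters.

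The share of neutrophils with a UMI differed between members, and for 7 of the 8 it was lowest in WT acute colitis. Lcn2 was found in 95.5 to 99.6% of neutrophils in 7 libraries and in 77.8% in WT acute colitis. Ltf was found in 65.6 to 95.1% in 7 libraries and in 38.6% in WT acute colitis. After thinning each cell to 1000 UMIs, the share with Ltf was still 41.7% in WT acute colitis, against 60.7 to 93.1% in the others, although 20 of 207 cells there were too shallow to be thinned. Ltf, Camp and Ngp together made up over 1% of a cell's UMIs in 39.1% of the neutrophils of WT acute colitis and in 60.5 to 94.0% in the other libraries. They made up under 0.1% in 52.2% of the neutrophils of WT acute colitis and in 3.45 to 20.1% in the others.

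Neutrophils without an Ltf UMI were poor in the other matrix genes in every library. Camp had a median of 881 CPM over the 8 libraries in Ltf-negative and of 28513 CPM in Ltf-positive neutrophils. Ngp had 2131 against 42633 CPM, and Olfm4 29.2 against 259 CPM. Lcn2 was less divided, at 5939 against 20577 CPM, and was still detected in a median of 91.8% of Ltf-negative cells. Wfdc21 was at 2013 against 3979 CPM and was detected in 86.2% of Ltf-negative cells. Chil3 was at 284 against 2870 CPM by the median, yet at 2689, 3981 and 4675 CPM in the Ltf-negative cells of WT control, App NL-G-F control and App NL-G-F acute colitis. Those 3 libraries were also the ones with the highest Chil3 overall. In the same order, Ly6g was at 1092, 353 and 170 CPM in their Ltf-negative cells, against 759, 585 and 692 CPM in Ltf-positive cells. Gated cells of all libraries included 31 monocyte-like cells (Chil3 at 4226 CPM, Ltf in 29.0%). They also included 194 precursor-like cells (Chil3 at 2648 CPM, Ltf in 62.4%). The part of such cells in the Chil3 of Ltf-negative cells was not tested.

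Il1b went the other way. In WT chronic colitis it was at 3777 CPM in Ltf-negative and 399 CPM in Ltf-positive neutrophils, and in WT acute colitis at 11014 and 251 CPM. It was higher in the Ltf-negative cells of all 8 libraries, at 1000 CPM or more there and at 1273 CPM or less in Ltf-positive cells. Ltf-negative cells were also shallower, with library medians of 1615 to 5896 UMIs against 4985 to 12865 in Ltf-positive cells. The part of depth in these differences was not tested beyond the thinned shares.

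**Figure D3:**
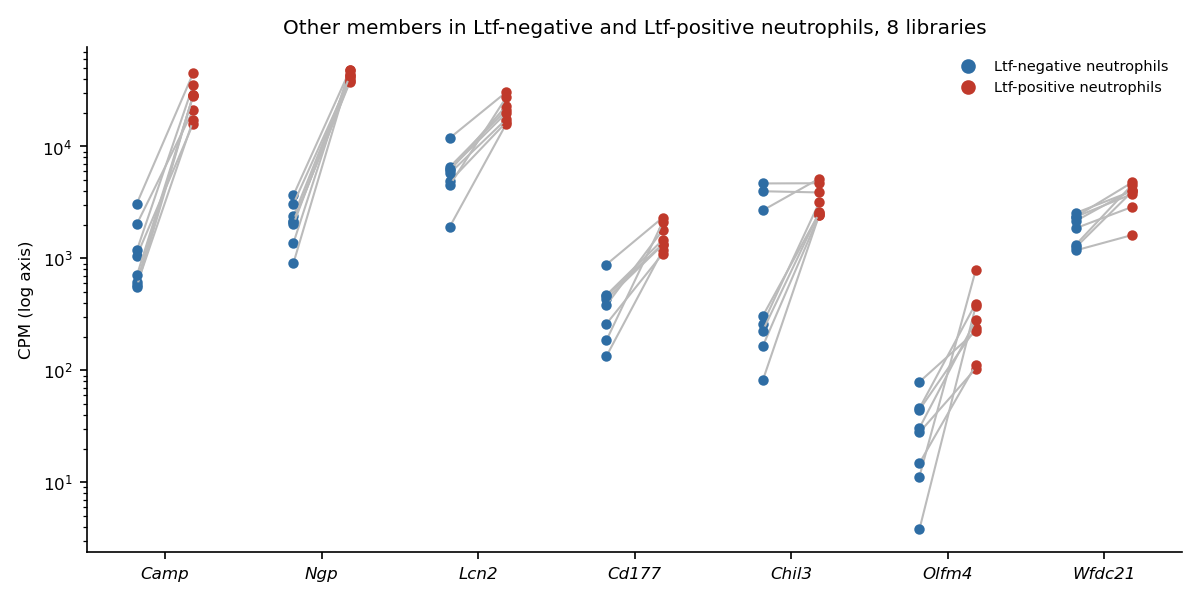
Level of the other 7 members in Ltf-negative and Ltf-positive neutrophils, in CPM on a log axis, with a line joining the values of each of the 8 libraries. Camp (560 to 3094 against 16027 to 45153 CPM) and Ngp (905 to 3663 against 37320 to 48197 CPM) separate without overlap, whereas Chil3 overlaps in the 3 libraries named above.

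Olfm4 was detected in a minority of neutrophils. Few of these positive cells carried a single UMI, and the number of copies they held differed widely between libraries. The share with a UMI was 6.62% in WT control, 9.18% with acute colitis, 11.8% with chronic colitis and 5.82% with food allergy, and 9.31, 15.0, 5.15 and 4.31% in App NL-G-F in the same order. A positive cell held a median of 6 UMIs (WT food allergy) to 65.5 UMIs (App NL-G-F acute colitis), and between 4.50 and 13.2% of positive cells had a single UMI. The decile of neutrophils richest in Olfm4 held 89.5% of its UMIs in App NL-G-F acute colitis and 98.1% in WT chronic colitis. In the other libraries the positive cells were fewer than a decile, so it held 100% by construction and adds nothing to the share of positive cells. The richest decile held 21.2 to 55.9% for Cd177 and 31.1 to 72.8% for Chil3, whose upper end was the highest of the other members. After thinning to 1000 UMIs the shares were 5.99, 7.49, 8.33 and 4.98% in WT and 8.28, 13.8, 4.63 and 2.61% in App NL-G-F. The highest and the lowest library were unchanged by thinning.

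The share was uneven between hashtag groups of the same library. In WT food allergy, 39 of 459 neutrophils of hashtag 4 were positive (8.50%, exact binomial 95% interval 6.11 to 11.4%) and 6 of 390 of hashtag 5 (1.54%, interval 0.567 to 3.32%). In App NL-G-F control, 21 of 121 of hashtag 5 were positive (17.4%, interval 11.1 to 25.3%) and 1 of 43 of hashtag 4 (2.33%, interval 0.0589 to 12.3%). Among the 1478 neutrophils of acute colitis in App NL-G-F, 1235 were of hashtag 7, with 196 of the 222 positive cells (15.9%, interval 13.9 to 18.03%), and 0 of 52 of hashtag 4 were positive (upper bound 6.85%). The level of 757 CPM in that library is thus close to that of 1 hashtag group, at 814 CPM. In WT chronic colitis, 77 of 630 cells of hashtag 6 were positive (12.2%) and 0 of 35 of hashtag 7 (upper bound 10.0%). Only the pair in WT food allergy and the pair of hashtags 7 and 4 in App NL-G-F acute colitis had intervals that did not overlap, and these cover counting error within a library only.

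**Figure D4:**
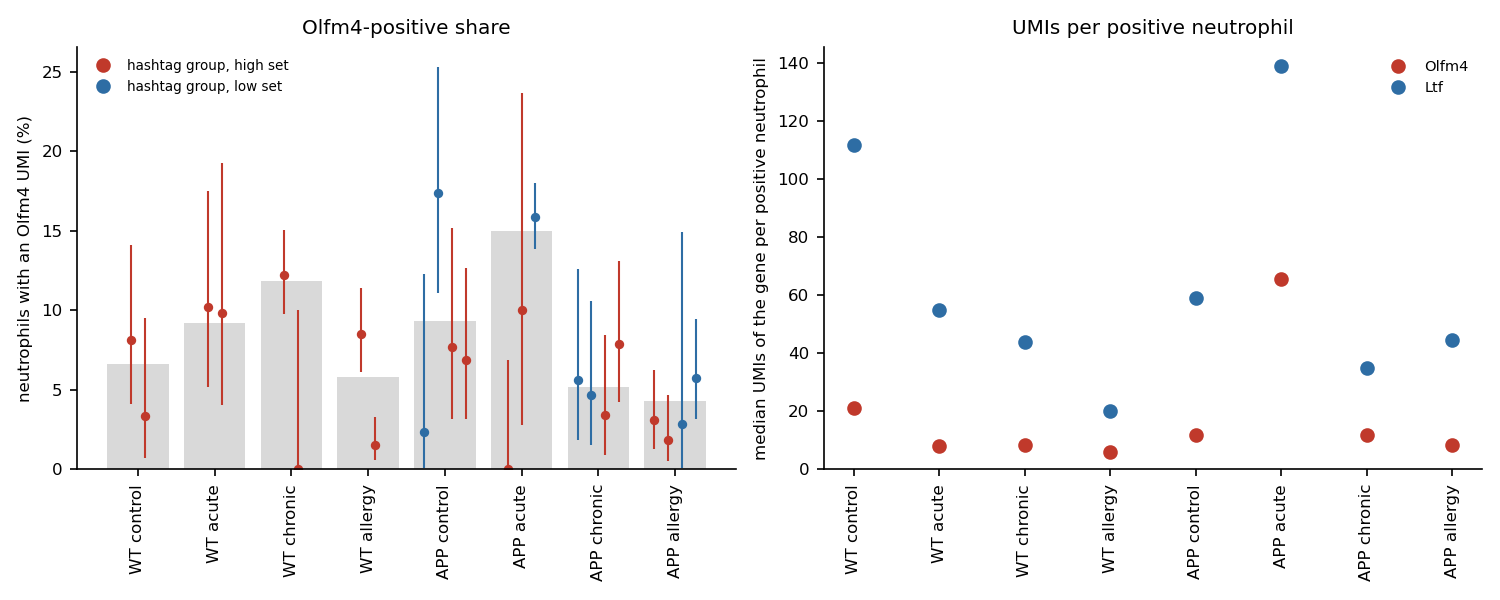
Percent of neutrophils with at least 1 Olfm4 UMI in each library and in each hashtag group, with exact binomial 95% intervals (left, bars for libraries, points for groups), and the median UMIs of Olfm4 and of Ltf per positive neutrophil (right). Libraries sit between 4.31 and 15.0%, and groups of the same library span as wide a range, from 2.33 to 17.4% in App NL-G-F control. A positive cell held a median of 6 to 65.5 Olfm4 UMIs and of 20 to 139 Ltf UMIs.

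Olfm4-positive neutrophils carried the other 7 members at about the level of their Olfm4-negative neighbours. The comparison summed UMIs over positive and over negative neutrophils of the 6 libraries with at least 20 positive cells and took the library as a block (edgeR quasi-likelihood test, Benjamini-Hochberg adjusted p under 0.05 over 10108 genes, Olfm4 itself left out). Of the 7 members tested, 0 passed in either direction, where 4 genes (0.0396%) were higher and 61 (0.603%) lower over the whole table, or 0.643% in either direction. At an unadjusted p under 0.05 there were 762 genes. In edgeR, the log2 differences of positive minus negative cells were 0.18 for Ltf (SE 0.084, adjusted p = 0.618), 0.16 for Camp (SE 0.070, adjusted p = 0.60) and 0.16 for Ngp (SE 0.067, adjusted p = 0.57). Lcn2 was at 0.15, Cd177 at 0.17, Wfdc21 at 0.19 and Chil3 at -0.07, with edgeR adjusted p between 0.535 and 0.985. The unadjusted 95% intervals of the fold were 1.01 to 1.28 for Ltf, 1.01 to 1.24 for Camp, 1.02 to 1.27 for Wfdc21 and 0.824 to 1.11 for Chil3. The largest upper bound among the 7 members was 1.28. Their median log2 difference was 0.16, beside -0.03 over all genes tested.

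The library values give the sizes behind these differences. Ltf in positive and negative cells was at 11505 and 11285 CPM in App NL-G-F acute colitis, 9769 and 9059 in control, 11220 and 7367 in chronic colitis and 9668 and 8408 in food allergy. In WT it was at 6643 and 6290 CPM in chronic colitis and at 8758 and 9174 CPM in food allergy. Positive cells were thus higher in 5 of 6 libraries for Ltf. With gated cells of neutrophil-like clusters only, an alternative chosen after seeing the data, Ltf was at 0.02, Camp at 0.01, Ngp at 0.00, Lcn2 at -0.01, Cd177 at -0.01, Wfdc21 at 0.04 and Chil3 at -0.17 on the log2 scale (edgeR adjusted p = 1.0 for each, where 0.173% of genes passed in either direction). The outcome differed under another choice of cells, by neutrophil-like and precursor-like clusters in place of the gate. To the 194 precursor-like cells of the gate this added 2569, with a median of 1.38 CPM of Ltf and 0 CPM of Olfm4. It also left out the gated cells of other clusters. All 7 members were then higher in Olfm4-positive cells, by 1.36 (Chil3) to 1.86 (Ngp) on the log2 scale (edgeR adjusted p of at most 1.76e-05). Which of these changes moved the members was not tested.

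Azurophil granule genes were lower in Olfm4-positive cells. Of 7 measured genes of the list, 5 fell and 0 rose. Mpo fell by 2.23 on the log2 scale (SE 0.34), Elane by 2.11 (SE 0.29), Ctsg by 2.11 (SE 0.38), Prtn3 by 1.43 (SE 0.19) and Ms4a3 by 0.93 (SE 0.17), with edgeR adjusted p of at most 0.0055. Elane was at 373, 1004, 985 and 1125 CPM in negative cells of App NL-G-F acute colitis, control, chronic colitis and food allergy, against 162, 275, 562 and 51.6 CPM in positive cells. In WT it was at 1730 against 384 CPM in chronic colitis and at 435 against 38.7 CPM in food allergy, so that positive cells were lower in all 6 libraries. The precursor-like cluster, which expresses these genes, held 1.81% of Olfm4-positive and 3.25% of Olfm4-negative neutrophils, and among gated cells of neutrophil-like clusters 0 of the 5 genes passed. With sums per library and cluster, Elane fell by 2.63 on the log2 scale (edgeR adjusted p = 0.00038), and Mpo, Ctsg, Prtn3 and Ms4a3 did not pass.

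Among 10 late neutrophil genes, Il1b fell by 0.89 on the log2 scale (SE 0.19, edgeR adjusted p = 0.028) and 0 rose. With sums per library and cluster, 0 of the 10 passed. In neutrophil-like clusters only, Il1b fell by 0.998, Cxcl2 by 0.71, Acod1 by 0.83, Tnfaip3 by 0.83 and Ccrl2 by 1.53 on the log2 scale (edgeR adjusted p of at most 0.0346). The others of the 11 lower genes there were Mgl2 (-2.41), Pltp (-1.86), Ifi27l2a (-0.84), Hcar2 (-0.66), Igkv9-120 (-4.73) and Iglv2 (-2.93), of which Mgl2 is known from macrophages and dendritic cells and the last ones from B-lineage cells. All of these but Il1b, Cxcl2 and Iglv2 were named after their values had been seen, and of the 11 only Ccrl2 also passed with sums per library and cluster. None of these fits took the hashtag group as a block. In App NL-G-F control, 13.4% of neutrophils in the low and 7.21% in the high immediate-early set (described further on) were Olfm4-positive. The shares were 15.9% and 4.35% in acute colitis, 5.10% and 6.01% in chronic colitis and 5.40% and 2.49% in food allergy. Ccrl2 (8.27), Cxcl2 (6.78), Acod1 (4.48) and Tnfaip3 (3.99) were higher in the high set on the log2 scale, while Il1b did not pass. The part of the sets in these falls was not tested. Of 17 measured other specific and gelatinase granule genes, among them Mmp8, Mmp9 and Hp, 0 passed in either direction, with a median log2 difference of 0.14. Of 9 granulocyte transcription factors (Cebpe 0.13 and Gfi1 -0.37), 8 proliferation genes, 10 immediate-early genes and 11 markers of other cell types, 0 passed.

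Of the genes outside the lists, Chil5, a chitinase-like gene of the family of Chil3, was higher in Olfm4-positive cells by 0.72 on the log2 scale (SE 0.15, edgeR adjusted p = 0.018) and in 6 of 6 libraries, for example at 50.0 against 26.3 CPM in WT food allergy and 23.3 against 15.9 CPM in App NL-G-F acute colitis. It did not pass in neutrophil-like clusters only or with sums per library and cluster. Among passing genes with at least 100 UMIs and the same sign in all 6 libraries, the largest negative differences were in Igha, Mcpt8, Iglv2, Igkv4-91 and Ighv3-6. These are genes of plasma cells or basophils. Igha had 0 UMIs in the positive cells of all 6 libraries and between 1 and 4573 in the negative cells, which were more numerous in each library, so that its sign there says little. Other immunoglobulin genes passed in the opposite direction. Igkv6-32 (3.97), Igkv3-4 (3.62) and Igkv6-25 (2.80) were higher in Olfm4-positive cells on the log2 scale. In neutrophil-like clusters only, Ighv2-9-1 (9.04), Igkv3-4 (7.31), Igkv6-32 (3.99), Igkv6-25 (2.75) and Igkc (1.75) were higher. These higher immunoglobulin genes were named after their values had been seen. The plasma cell-like cluster held 1 of the 553 positive cells and 96 of the negative cells of the gate. The part of such cells in these differences was not tested beyond the values in neutrophil-like clusters above.

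**Figure D5:**
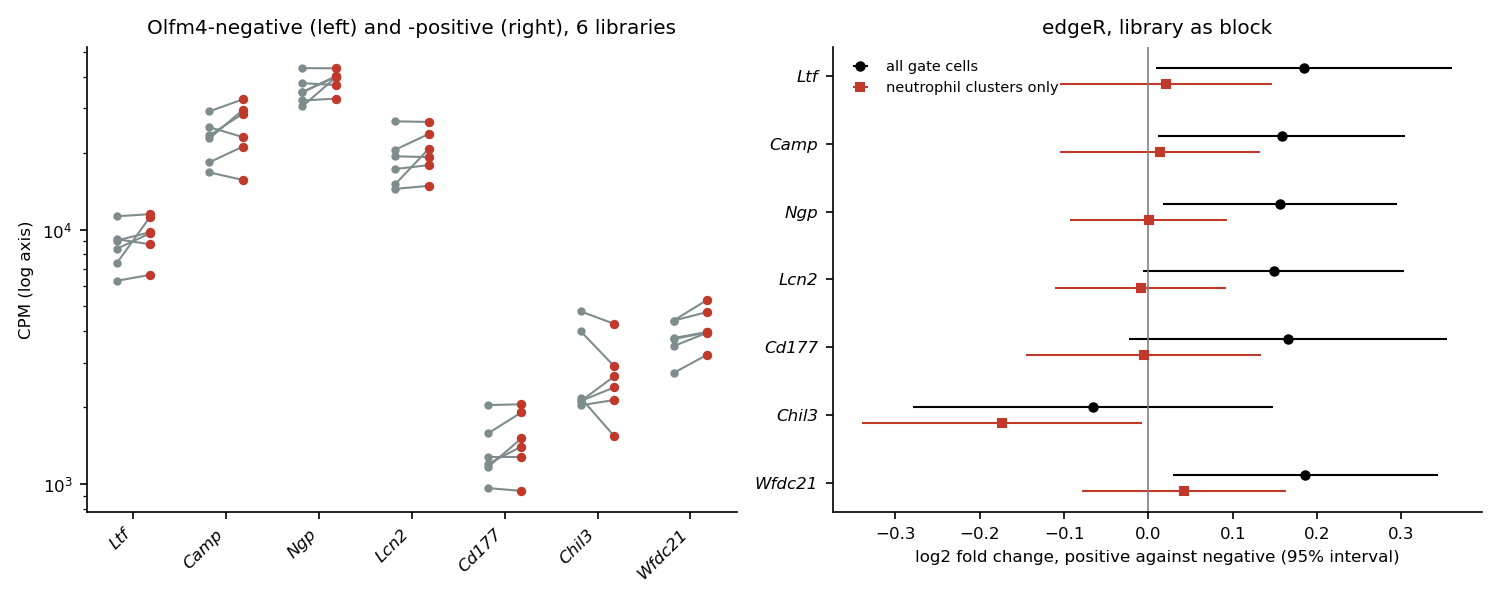
Level of 7 members in Olfm4-negative and Olfm4-positive neutrophils of 6 libraries, in CPM on a log axis with a line per library (left), and log2 fold change with 95% interval from edgeR with library as a block (right), for all gated cells and for neutrophil-like clusters only. The 7 members lie between -0.07 and 0.19 in all gated cells and between -0.17 and 0.04 in neutrophil-like clusters.

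Across treatments and genotypes, no member passed the test. The fit used the summed neutrophils of all 8 libraries with genotype and treatment as additive terms, so that a treatment sets 2 libraries against the 2 control libraries that all treatments share. Over 10430 genes, acute colitis gave 1 gene past an edgeR adjusted p of 0.05 (0.00959%), chronic colitis 2 (0.0192%), food allergy 1 (0.00959%) and App NL-G-F against WT 4 (0.0384%), and 0 of 8 members passed in each. By direction, 0 genes were higher and 0.00959% lower in acute colitis, 0.00959% in each direction in chronic colitis, 0.00959% higher and 0 lower in food allergy, and 0.0288% higher and 0.00959% lower in App NL-G-F. At an unadjusted p under 0.05 the counts of genes were 329, 771, 363 and 645. Camp was at 0.52 (acute), 0.54 (chronic) and 0.57 (food allergy) on the log2 scale, with SE of 0.36 to 0.37. Chil3 was at -0.31, -1.22 and -1.03 (SE 0.45 to 0.46), Cd177 at -0.37, -0.99 and -0.60, and Olfm4 at 0.96, -0.41 and -1.43 (SE 0.45), in the same order. The lowest edgeR adjusted p of a member was 0.655, for Cd177 and Chil3 in chronic colitis. App NL-G-F against WT was at 0.72 for Wfdc21 (SE 0.31, edgeR adjusted p = 0.803), 0.69 for Olfm4 and between -0.11 and 0.43 for the other members. The median log2 difference of the members was -0.03 in acute colitis, -0.55 in chronic colitis, -0.28 in food allergy and 0.31 in App NL-G-F, beside 0.01, 0.05, 0.01 and 0.01 over all genes. Of the other specific granule, azurophil, transcription factor, late neutrophil, proliferation, immediate-early and other cell type lists, 0 genes passed in any of the 4 comparisons.

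The hashtag groups describe the same contrast within a genotype. In WT, the groups of each treatment were above both control groups for Camp and Wfdc21 and below both for Lcn2, Cd177 and Chil3. Groups did not overlap with control for 8 of 8 members with acute colitis, 7 with chronic colitis and 6 with food allergy, but with 2 groups a side the same held for 56.1%, 54% and 53.2% of 3813 genes. Camp was at 12832 and 15549 CPM in the groups of WT control and between 24581 and 36211 CPM in the 6 groups of treated WT mice. Cd177 was at 2189 and 2267 CPM in the control groups and between 773 and 1523 CPM in the treated ones. In App NL-G-F the ranges of all 8 members overlapped between control and chronic colitis and between control and food allergy, where 1.23% and 1.91% of genes did not overlap. Those of 2 members did not overlap between control and acute colitis, where 2.73% of genes did not. There, Ngp was above the control groups (44608 to 46535 against 16851 to 41880 CPM) and Wfdc21 below them (3673 to 4612 against 4683 to 5560 CPM).

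The groups also divided by immediate-early genes, the first genes to respond to a stimulus. T cells of each hashtag group were in a low set, at 1407 CPM or less for 10 such genes, or in a high set, at 3342 CPM or more, as set without neutrophils. All hashtag groups with at least 20 neutrophils in WT were of the high set, while App NL-G-F had 8 of the high and 7 of the low set, so genotype and set cannot be told apart in a comparison over all neutrophils. In the 4 App NL-G-F libraries, high and low sets were compared with the library as a block (edgeR, 6895 genes). Of the genes, 120 (1.74%) were higher and 2 (0.029%) lower in the high set, or 1.77% in either direction, and 0 of 8 members passed.

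Chil3 had the largest difference of the members, 1.28 on the log2 scale (SE 0.47, edgeR adjusted p = 0.295), with 3466, 2708, 3810 and 4859 CPM in the high sets of acute colitis, food allergy, chronic colitis and control and 4927, 802, 1375 and 1041 CPM in the low sets. It was higher in 3 of 4 libraries, and without acute colitis its difference was 1.87 with an edgeR adjusted p of 0.020. Olfm4 was at -1.10 (SE 0.40, edgeR adjusted p = 0.294), with 166, 88, 142 and 350 CPM in the high and 814, 128, 398 and 396 CPM in the low sets, lower in the high set of all 4 libraries. With no filter on low counts the edgeR adjusted p was 0.011 for Chil3 and 0.015 for Olfm4. Of 11 alternatives, Chil3 passed in 2 and Olfm4 in 1. Without acute colitis, Olfm4 was at -0.68 (edgeR adjusted p = 0.345). With neutrophil-like and precursor-like clusters it was at 0.58 (edgeR adjusted p = 0.921). The high-set value of Olfm4 in acute colitis rests on 4 positive cells of 92. Camp was at 0.60, Ngp at 0.57, Ltf at 0.31, Lcn2 at 0.30, Cd177 at 0.01 and Wfdc21 at -0.26. Of the 11 markers of other cell types, H2-Aa rose by 2.64 on the log2 scale in the high set. Outside the lists, and named after their values had been seen, H2-Ab1 rose by 3.05, Mgl2 rose by 4.63 and Cd8b1 fell by 4.24 (edgeR adjusted p of at most 0.0375), genes known from antigen-presenting cells and T cells. The part of such cells in the values of the sets was not tested. Of the immediate-early genes 9 of 10 rose in the high set, and Cxcl2 rose by 6.78, Cebpb by 1.82 and 4 of 8 proliferation genes by 1.44 to 2.04 on the log2 scale. The immediate-early result is not independent of the sets, which were defined by these genes in T cells of the same hashtag groups. The immediate-early genes and the sets were chosen after earlier results of these data had been seen.

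Within the high set alone, where both genotypes have neutrophils, 2 members passed in acute colitis against control. Camp rose by 1.06 (edgeR adjusted p = 0.043) and Cd177 fell by 1.11 on the log2 scale (edgeR adjusted p = 0.043), where 265 of 8567 genes (3.09%) passed. Chronic colitis gave 0.998 for Camp and -1.001 for Cd177 (edgeR adjusted p = 0.0595 and 0.0663), where 2.36% of genes passed and 0 of 8 members did. App NL-G-F acute colitis enters there with 92 of its 1478 neutrophils.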

How the data were processed

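The authors deposited, for each of the 8 libraries, unfiltered matrices of UMI counts per gene and barcode and counts of 4 hashtags, made with Cell Ranger (6.1.2 per the labels, whereas the file headers name Cell Ranger 4) on mm10 (GRCm38), without normalization. Libraries held 26988646 to 56307389 UMIs, and 0 columns were left unused. A UMI collapses copies of 1 molecule, so intervals (95%, exact binomial or Poisson) cover counting error only.

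Cells were called by an order-of-magnitude cutoff (3000 cells expected), to which barcodes of at least 500 UMIs were added where they differed from the ambient profile of ranks 45000 to 90000 (1000 simulations, false discovery rate 0.01). Following the study's filters, cells needed 200 genes and at most 5% mitochondrial UMIs. Cells were clustered without the members (2000 variable genes, 30 components, 20 neighbours, Leiden resolution 0.5), and a cluster was called like a cell type from markers listed for it. Cells with several hashtags, which include doublets, stayed in the library sums and were left out in an alternative. Hashtags were assigned with a minimum of 50 counts, and hashtag groups needed 20 neutrophils.

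UMIs were summed per library and arm, with at least 20 cells in an arm, and tested with edgeR 4.0.16 (quasi-likelihood, TMM factors, filterByExpr, Benjamini-Hochberg adjustment, threshold 0.05). DESeq2 1.42.0 was an alternative. Scripts ran in R 4.3.3 and Python 3.11.15 (scanpy 1.11.5, leidenalg 0.10.2, scipy 1.17.1, numpy 2.4.6, pandas 2.3.3 and matplotlib 3.10.9), and the fits were tested on simulated data. Genes were named as members, as genes of the lists, as the 5 most correlated with Olfm4 or Ltf (mean of at least 20 CPM, 10 CPM added before the logarithm), or as the 5 largest rises and falls between Olfm4-positive and Olfm4-negative cells (at least 100 UMIs, the same sign in every library). The members, lists and sets were chosen with earlier results of these data known. Positions are from GENCODE vM21, and promoter windows from RefSeq (GRCm38.p6). With 1 library per condition, p-values of treatment and genotype rest on the spread between libraries around additive effects. Libraries were the block where both arms came from the same library. The labels do not say whether the hashtag groups were separate animals.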

Additional observations from a re-analysis of the deposited data

Results flagged for a closer look

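Of 68 groups of values examined for a sample far from the others, 6 stood out, and chance gives about 1 in 20. The share of neutrophils with a UMI was far below the other 7 libraries in WT acute colitis for Camp (43.0%), Ngp (49.8%), Lcn2 (77.8%) and Cd177 (46.4%). That library had the lowest median depth of its neutrophils, 2658 UMIs, and after thinning to 1000 UMIs its shares were 45.5% for Camp, 50.3% for Ngp, 72.7% for Lcn2 and 32.1% for Cd177. Olfm4 stood far above the other libraries in App NL-G-F acute colitis, at 757 CPM, where 1 hashtag group held 1235 of 1478 neutrophils. Ltf was at 11116 CPM in hashtag 4 of App NL-G-F chronic colitis, against 8462 to 8640 CPM in its other 3 groups.

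For 2 members, all hashtag groups of acute colitis moved in opposite directions from control in the 2 genotypes. Ngp was lower in WT, with a log2 ratio of the libraries of -0.34, and higher in App NL-G-F, with 0.30. Wfdc21 was higher in WT, with 0.98, and lower in App NL-G-F, where the ratio of the libraries was -0.0058. Over 3813 genes, the groups of acute colitis and control did not overlap for 56.1% in WT and for 2.73% in App NL-G-F. The share of all genes with opposite directions was not computed, and the difference between genotypes was not tested.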

How the results depend on the processing

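The median summed level of 92637 CPM was 44913 CPM when cells were taken by neutrophil-like and precursor-like clusters, 101391 CPM with exactly 1 hashtag and 77188 CPM after thinning. Of the alternative values of single-gene levels, 103 moved by less than their spread and 17 by more. Of the summaries (summed levels, shares and counts of genes past the threshold), 70 stayed near their reported value and 122 moved. Of those of single-gene log2 differences, 675 kept their side of the threshold, 11 passed it where the reported value did not, and 1 reversed.

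Between Olfm4-positive and Olfm4-negative neutrophils, 4 genes were higher and 61 lower. The counts were 2 and 19 with DESeq2, 14 and 212 with no filter on low counts, 1 and 2 with sums per library and cluster, and 1993 and 2408 with neutrophil-like and precursor-like clusters. Under that last setting, which adds 2569 precursor-like cells from outside the gate, all 7 members were past the threshold, at 1.76 to 1.86 on the log2 scale for 6 of them, and Chil3 turned from -0.07 to 1.36. A gate of 5% gave 26 lower, thinning 0 higher, and gated cells of neutrophil-like clusters 11 lower. With no replicate block, 0 genes were higher and 0 lower. Leaving out 1 library gave 3 to 4 higher and 39 to 91 lower.

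For treatment and genotype, the counts of higher and lower genes were 0 and 1 (acute colitis), 1 and 1 (chronic colitis), 1 and 0 (food allergy) and 3 and 1 (App NL-G-F). In the same order they were 2 and 11, 17 and 13, 11 and 1, and 8 and 36 with DESeq2, and 26 and 24, 70 and 46, 44 and 10, and 45 and 147 with no filter. Within the high set they were 118 and 147, 71 and 131, 8 and 4, and 1 and 2. With exactly 1 hashtag they were 0 throughout. A gate of 5% gave 0 lower in acute colitis and 5 higher and 0 lower in App NL-G-F. Clusters in place of the gate gave 0 lower in acute and chronic colitis, 0 higher in food allergy and 1 higher in App NL-G-F. Leaving out 1 library gave 0 to 16 and 0 to 66, 0 to 22 and 1 to 30, 0 to 12 and 0 to 5, and 5 to 12 and 2 to 26. The low set alone could not be fitted, since it holds no WT neutrophil groups of this size. No paired analysis was possible for treatment because each condition is 1 library.

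Between the sets, 120 genes were higher and 2 lower. The counts were 238 and 30 with DESeq2, 330 and 74 with no filter, 69 and 1 with clusters, and 277 and 50 with no replicate block. A gate of 5% gave 16 lower, and leaving out 1 library 31 to 156 higher and 0 to 20 lower. The cause of these shifts was not tested. The Olfm4 share of WT acute colitis rests on 19 positive cells among 207.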

Other observations

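The largest neutrophil-like clusters differed in Olfm4. It was found in 7.21% of the gated cells of 1 cluster (172 CPM) and in 13.5% of those of another, led by Asprv1 and Mmp8 (762 CPM), of which 59.1% came from 1 library. In App NL-G-F acute colitis 91.0% of Olfm4-positive and 84.1% of Olfm4-negative neutrophils lay in the latter, and in App NL-G-F control 50.0% and 34.5%.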
